A study of Mus musculus with 22 samples.

Results

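The genes described here are the 41 genes of the DNA replication machinery that have a row in a count table of 24454 mouse genes, taken by name and not by their values. They cover 7 roles, namely origin recognition and licensing (9 genes), the Mcm2 to Mcm7 helicase (6 genes), helicase activation (6 genes), the sliding clamp and its loader (6 genes), the polymerases and primase (9 genes), single-strand binding (3 genes) and Okazaki fragment maturation (2 genes). Their RNA was measured by bulk RNA-seq in 22 libraries, each made from 25 VE-Cadherin-positive cells of the aorta-gonad-mesonephros (AGM) region of untreated C57BL/6 mouse embryos, the site where endothelial cells give rise to blood stem and progenitor cells. The cells were sorted on the surface proteins CD44 and Kit into CD44Neg (10 libraries, labelled endothelial: 4 from E9.5 and 3 each from E10 and E11), CD44LowKitNeg (6 libraries, labelled hemogenic endothelial: 1 from E9.5, 2 from E10, 3 from E11), CD44LowKitPos (3 libraries, labelled Pre-HSPC: 1 at E9.5 and 2 at E10) and CD44High (3 libraries, labelled HSPC, all from E11). The question put to these libraries was how the 2 endothelial populations differ from each other and from the later steps of the transition to blood.

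A cell prepares its DNA for copying in G1 phase, when the origin recognition complex, Cdc6 and Cdt1 load the ring-shaped Mcm2 to Mcm7 helicase onto chromatin. In S phase the helicase is switched on by Cdc45 and the GINS complex, DNA polymerase alpha with primase lays down primers, and polymerases delta and epsilon extend them while held by the PCNA ring. Many of these genes are transcribed in a wave before S phase by E2F transcription factors, so dividing cells hold more of these transcripts than resting cells.

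Between 3912350 and 8657546 reads were counted per library, and 40 of the 41 genes had at least 1 count in every library. The exception was *Gins3*, with 0 counts in CD44LowKitNeg replicate 12, which allows up to 0.388 CPM, the count scaled to the library's size. Levels are given as normalised CPM, scaled by TMM over all 22 libraries, and each difference as a log2 fold change with its standard error (SE). A gene was called when its adjusted p in edgeR's quasi-likelihood test over all genes was under 0.01. In RNA from pooled cells, a smaller share of cells that copy their DNA and less replication RNA per cell cannot be told apart. The date in the labels changes with the embryonic stage, so stage and date cannot be told apart either. The labels do not say whether the libraries of a group came from separate embryos, and the p-values then measure the spread between libraries, which may be technical.

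Marker genes were summed to check the labelled cell types. The summed level of 8 endothelial markers was 3520 to 5920 CPM in CD44Neg, 3720 to 8670 CPM in CD44LowKitNeg, 766 to 1850 CPM in CD44LowKitPos and 14.3 to 78.8 CPM in CD44High, where *Cdh5*, the gene of VE-Cadherin, was at 0 in all 3 libraries. The 8 blood markers summed to 5.84 to 40.2 CPM in CD44Neg, 8.36 to 302 CPM in CD44LowKitNeg, 453 to 1230 CPM in CD44LowKitPos and 974 to 1720 CPM in CD44High. The 8 macrophage markers summed to 1400 to 3830 CPM in CD44High, and to at most 40.2 CPM in the other 3 populations. The erythroid and mesenchyme lists reached at most 285 and 142 CPM in any library.

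The 41 genes together were lowest in CD44LowKitNeg. Their summed level was 5200 ± 611 CPM (SD, n = 10) in CD44Neg, 3130 ± 1000 CPM (n = 6) in CD44LowKitNeg, 6170 ± 690 CPM (n = 3) in CD44LowKitPos and 6870 ± 990 CPM (n = 3) in CD44High. At E11 the CD44LowKitNeg libraries held 2481, 2765 and 1655 CPM and the CD44Neg libraries 4848, 4680 and 3969 CPM. At E10 the values were 4022 and 3609 CPM against 5223, 5227 and 5277 CPM, and at E9.5 they were 4248 CPM against 5247 to 6163 CPM. Within each stage, every CD44LowKitNeg library lay below every CD44Neg library, although the stages overlapped when pooled. The CD44LowKitPos libraries held 6668 and 6466 CPM at E10 and 5385 CPM at E9.5, above the CD44LowKitNeg libraries of the same stages. In CD44High the sums were 7906, 5936 and 6755 CPM, each above the CD44LowKitNeg libraries from E11.

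**Figure D1:**
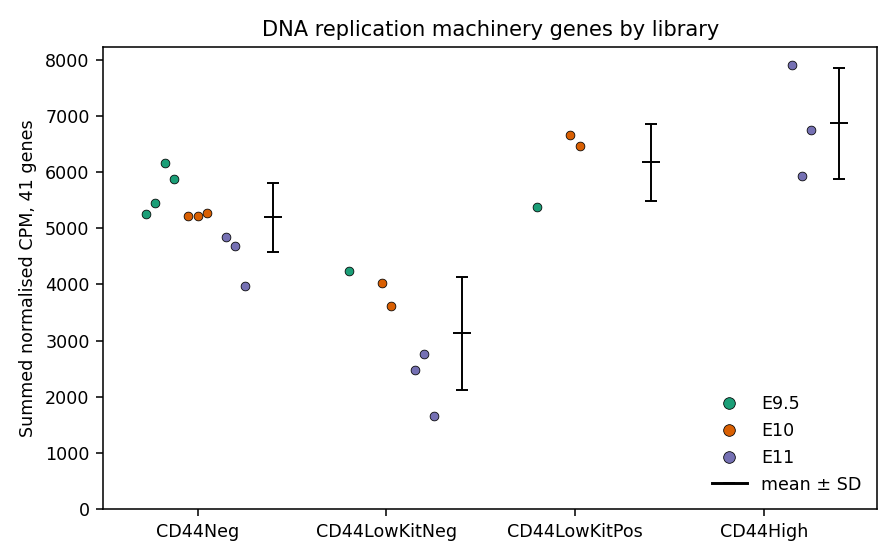
Summed normalised CPM of the 41 replication genes (y axis) in each of the 22 libraries, by population (x axis), with points coloured by embryonic stage and bars showing the mean ± SD of each population. CD44LowKitNeg had the lowest mean (3130 CPM), its E11 libraries lay between 1655 and 2765 CPM, and the CD44LowKitPos and CD44High libraries lay at 5385 CPM or above.

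Between the 2 endothelial populations, 13 of the 41 genes were lower in CD44LowKitNeg than in CD44Neg and 0 were higher. Over all 11022 genes tested, 5.23% were called lower and 4.94% higher. The 13 were *Fen1*, *Mcm3*, *Pola2*, *Mcm7*, *Rfc5*, *Mcm10*, *Mcm5*, *Rfc2*, *Cdc45*, *Cdc6*, *Gins2*, *Mcm2* and *Pold2*, with log2 fold changes between −0.98 and −2.24. The estimate was below 0 for 37 genes, with a median of −0.76, against 0.01 over all genes. The other 4, *Orc3*, *Orc4*, *Pola1* and *Rpa3*, had estimates between 0.06 and 0.31 and were not called. At an unadjusted p under 0.05, 26 genes were lower, against 16.6% of all genes, and 0 higher, and DESeq2 called 15 lower and 0 higher, among 1746 genes called in either direction. For 7 genes (*Mcm3*, *Mcm7*, *Mcm10*, *Rfc5*, *Pola2*, *Pold2* and *Fen1*) all 6 CD44LowKitNeg libraries lay below all 10 CD44Neg libraries, as they did for 3.08% of all genes. Taking each stage by itself, 29 of the 41 genes (70.7%) had a lower mean in CD44LowKitNeg at all 3 stages, against 27.5% of all genes tested. A fit with stage as a covariate called 14, among 1317 genes in either direction. From the E11 libraries alone, 3 against 3, the median was −1.02 and 0 genes were called (8 with a threshold of 0.05). Over all genes, 126 of 11942 were called in that fit, in either direction. From the E10 libraries alone, 2 against 3, the median was −0.44 with 0 called, against 1 of 11191 genes. In the same comparison 2 of 8 endothelial markers and 1 of 5 tested blood markers were called higher, the mean erythroid sum was 38.1 against 12.4 CPM and the mean mesenchyme sum 26.5 against 5.03 CPM, and their part in the result was not tested.

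From CD44LowKitNeg to CD44LowKitPos, 7 genes were higher (*Fen1*, *Rfc5*, *Mcm7*, *Mcm10*, *Rpa1*, *Mcm3* and *Rfc2*) and 0 lower. All 41 estimates were above 0 with TMM scaling, and 39 with median-ratio size factors, which moved the median of all genes to −0.16, or with stage as a covariate. The background was 2.55% of 12949 genes called higher. The median log2 fold change was 1.02, against −0.02 over all genes. At an adjusted p under 0.05, 21 genes were higher (7.12% of all genes), 0 genes were lower at an unadjusted p under 0.05, and DESeq2 called 15, all higher, among 429 genes called higher. For 20 genes all 3 CD44LowKitPos libraries lay above all 6 CD44LowKitNeg libraries, as they did for 9.55% of all genes. These calls rested on few libraries, since 0 genes were called without CD44LowKitPos replicate 17, 3 without replicate 18, 4 without CD44LowKitNeg replicate 11 or 12, and 12 without CD44LowKitNeg replicate 14. The E9.5 and E10 libraries alone, fitted with stage as a covariate, gave 0 calls, against 82 of 11881 genes in either direction, with a median of 0.65. In the same comparison the 8 endothelial markers all had lower estimates (5 called), the 8 blood markers all had higher estimates (2 called) and 1 macrophage marker was called higher, and their part in the result was not tested.

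From CD44LowKitNeg to CD44High, 18 genes were higher and 0 lower. The background was 7.79% of all genes called higher. The 18 were *Rfc5*, *Fen1*, *Mcm10*, *Pola2*, *Rfc2*, *Mcm7*, *Gmnn*, *Pola1*, *Lig1*, *Prim1*, *Prim2*, *Rpa1*, *Mcm5*, *Orc3*, *Rfc1*, *Pcna*, *Mcm2* and *Mcm6*. The median was 1.20, against 0.00 over all genes, and 38 estimates were above 0, the exceptions being *Orc1* (−0.04), *Orc4* (−0.10) and *Rfc3* (−0.18). No member was lower at an unadjusted p under 0.05, and all 21 DESeq2 calls were higher, among 1001 genes called higher. For 22 genes the 3 CD44High libraries lay above all 6 CD44LowKitNeg libraries, against 13.6% of all genes. From the E11 libraries alone, 3 against 3, 15 genes were called with a median of 1.63 (849 of 11942 genes were called higher), and a fit with stage as a covariate called 29 (1355 of 12949 genes were called higher). Without CD44High replicate 20 the number was 8, and without CD44High replicate 22 or CD44LowKitNeg replicate 11 it was 11. The call held whichever library was left out for 7 of the 18 (*Rfc5*, *Fen1*, *Mcm10*, *Pola2*, *Rfc2*, *Mcm7* and *Gmnn*) and was lost in at least 1 such fit for the other 11, most often for *Mcm6* (19 of 22 fits) and *Mcm2* (17 of 22). All 8 macrophage markers were called higher in the same comparison (1400 to 3830 CPM against 0 to 40.2 CPM), as were 2 of 8 blood and 2 of 7 tested erythroid markers, and all 8 endothelial markers were called lower. *Rn45s* took 16.6 to 23.9% of the counts in CD44High and 7.29 to 19.2% in CD44LowKitNeg. With *Rn45s* left out, 17 genes were called with a median of 1.17 (961 of 12976 genes were called higher). The part of the markers, and of *Rn45s* beyond its share of the counts, was not tested. The comparisons of CD44LowKitPos and CD44High with CD44LowKitNeg share its 6 libraries, so they are not independent of each other or of the comparison with CD44Neg.

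The remaining comparisons of populations gave few calls. CD44High was higher than CD44Neg for 3 genes, *Pola1*, *Orc3* and *Rfc1*, and lower for 0, with a median of 0.36 (7.14% of all genes were called higher). At an unadjusted p under 0.05, 11 were higher, against 16% of all genes, and 0 lower, and DESeq2 called 3, all higher. Without CD44High replicate 20 only 1 was called, and with stage as a covariate 10 were, among 930 genes called higher. The 3 calls are a share near the background. All 8 macrophage markers were called higher and all 8 endothelial markers lower in the same comparison, and their part in the result was not tested. CD44LowKitPos and CD44Neg differed for 0 genes, against 3.48% of all genes, with a median of 0.26 that became 0.06 with stage as a covariate. At an unadjusted p under 0.05 there were 4 such genes (*Rpa3*, *Rpa1*, *Prim1* higher and *Pola2* lower), against 20.3% of all genes, and DESeq2 called 0. CD44High and CD44LowKitPos also differed for 0 genes, against 3.01% of all genes, with a median of 0.07 that became 0.59 with stage as a covariate. Their libraries share no stage, so population and stage cannot be told apart here, and that fit takes the stage effect from the other populations. At an unadjusted p under 0.05 there were 5 (*Rfc1*, *Pola2*, *Pola1*, *Orc3* and *Orc5*, all higher in CD44High), against 17.8% of all genes, and DESeq2 called 0. The standard errors of the members in these last 2 comparisons had medians of 0.31 and 0.40, so differences of this size could not be resolved.

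**Figure D2:**
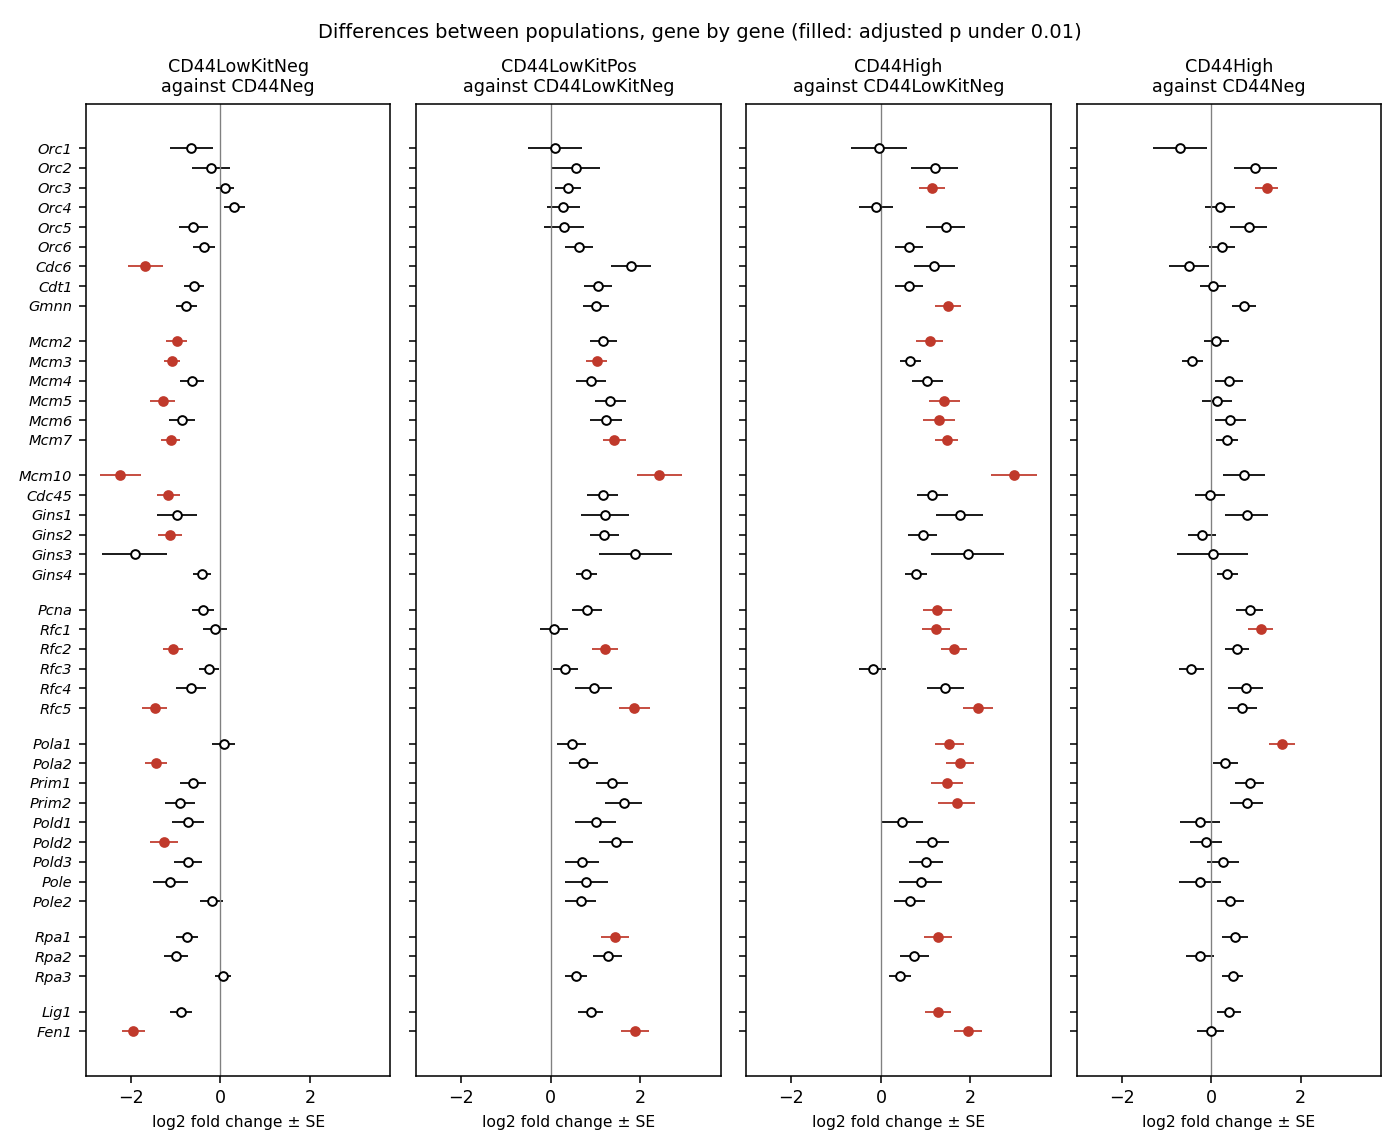
Log2 fold change ± SE (x axes) of each of the 41 genes (rows, grouped by role) in 4 comparisons of populations (panels), with filled red points for an adjusted p under 0.01. The estimates lay mostly below 0 for CD44LowKitNeg against CD44Neg (37 of 41), above 0 for CD44LowKitPos against CD44LowKitNeg (41 of 41, or 39 with median-ratio size factors) and for CD44High against CD44LowKitNeg (38 of 41), and nearer 0 for CD44High against CD44Neg (median 0.36).

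Licensing begins with the origin recognition complex, which marks the origins, and goes on with Cdc6 and Cdt1. Of the 6 Orc genes, 0 were called between the endothelial populations, with log2 fold changes from −0.65 (*Orc1*) to 0.31 (*Orc4*). *Cdc6*, the ATPase that recruits the helicase with Cdt1, was the 1 gene of this role that fell. Its level was 39.7, 100 and 162 CPM (lowest, median and highest) in CD44Neg and 5.11, 29.9 and 60.3 CPM in CD44LowKitNeg. It stood at 101, 136 and 80.4 CPM in CD44LowKitPos and at 70.9, 50.1 and 88.1 CPM in CD44High. The CD44LowKitNeg range overlapped that of CD44Neg only above 39.7 CPM, and the difference was −1.68 (SE 0.39, adjusted p = 0.00426). Its call was lost in 2 of the 16 fits that left out a library, with estimates from −1.96 to −1.46. The highest adjusted p was 0.0124, without CD44LowKitNeg replicate 15. CD44LowKitPos libraries lay above all CD44LowKitNeg libraries for *Cdc6*, at 1.79 (SE 0.45), although the adjusted p of 0.0117 missed the threshold.

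*Gmnn* encodes geminin, the inhibitor of Cdt1 that accumulates in S and G2 phase and prevents a second round of licensing. It was at 98.3, 145 and 259 CPM (lowest, median and highest) in CD44Neg and at 47.1, 86.8 and 142 CPM in CD44LowKitNeg, and the difference of −0.76 (SE 0.24, adjusted p = 0.0324) was not called. The 3 CD44LowKitPos libraries had 212, 181 and 186 CPM and the 3 CD44High libraries 247, 263 and 303 CPM. The CD44High libraries lay above all 6 CD44LowKitNeg libraries, a rise of 1.5 (SE 0.29, adjusted p = 0.000434). *Cdt1* itself differed by −0.59 (SE 0.23, adjusted p = 0.0729) between the endothelial populations and by 0.63 (SE 0.32, adjusted p = 0.144) between CD44High and CD44LowKitNeg. *Orc3*, a core subunit of the origin recognition complex that was also picked after its values were seen, rose in CD44High against CD44Neg by 1.24 (SE 0.26, adjusted p = 0.000883). Its 3 CD44High values were 424, 145 and 244 CPM against 64.9 to 162 CPM in CD44Neg, and without CD44High replicate 20 the adjusted p was 0.116.

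The 6 subunits of the Mcm2 to Mcm7 ring all had lower estimates in CD44LowKitNeg than in CD44Neg. Of these, 4 fell (*Mcm2*, *Mcm3*, *Mcm5* and *Mcm7*), and *Mcm6* (−0.86, SE 0.30, adjusted p = 0.0446) and *Mcm4* (−0.63, SE 0.27, adjusted p = 0.114) had lower estimates without a call. The *Mcm2* call was lost in 10 of the 16 fits that left out a library (adjusted p up to 0.0136), and those of *Mcm3*, *Mcm5* and *Mcm7* in 0. Levels per kilobase used the exons of all annotated transcripts of a gene, merged. Of the 6, *Mcm3* (106 ± 15.7 CPM per kb, SD, n = 10) and *Mcm6* (102 ± 18.4) had the highest levels in CD44Neg. They were followed by *Mcm4* (83.5 ± 24.8), *Mcm5* (58.3 ± 18), *Mcm7* (45.4 ± 11.1) and *Mcm2* (21.1 ± 6.41). Neighbours in this order differed by less than their combined spread except *Mcm7* and *Mcm2*. The ring holds 1 copy of each subunit, and these values spanned from 21.1 to 106 CPM per kb. The merged length (6956 bases for *Mcm2*, 3752 for *Mcm3*) can exceed that of the expressed transcript. Levels of different genes therefore compare only roughly, and the part of this length in the span was not tested. *Mcm3* was at 295, 419 and 471 CPM (lowest, median and highest) in CD44Neg and 97.9, 205 and 236 CPM in CD44LowKitNeg. The ranges did not overlap, and the level fell 2.11-fold (−1.08, SE 0.18, adjusted p = 0.000347). In CD44LowKitPos it was at 390, 407 and 353 CPM, a rise of 1.03 (SE 0.23, adjusted p = 0.00662), and in CD44High at 237, 243 and 411 CPM, where it was not called (0.66, SE 0.24, adjusted p = 0.041). The rise to CD44LowKitPos was lost with stage as a covariate (adjusted p = 0.0167), with median-ratio size factors, with no filter and in 12 of the 22 fits that left out a library.

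*Mcm7*, another subunit of the ring, was also lowest in CD44LowKitNeg. It was at 137, 198 and 278 CPM (lowest, median and highest) in CD44Neg and 54.2, 101 and 117 CPM in CD44LowKitNeg, without overlap (−1.11, SE 0.21, adjusted p = 0.000889). The CD44LowKitPos libraries had 339, 225 and 181 CPM and the CD44High libraries 240, 227 and 307 CPM, all above the 6 CD44LowKitNeg libraries. The rises were 1.42 (SE 0.26, adjusted p = 0.00194) and 1.47 (SE 0.26, adjusted p = 0.000201). Exons of *Mcm7* share 557 bases with *Ap4m1*, *Cops6*, *Mir25* and *Mir93*, and how shared reads were counted is not given in the sources used here.

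Helicase activation held the gene with the largest fold changes among the 41 in the 3 comparisons of CD44LowKitNeg with another population, *Mcm10*, whose product helps to activate the loaded helicase and to bring in polymerase alpha. *Mcm10* was at 19.2, 43.3 and 73.2 CPM (lowest, median and highest) in CD44Neg and at 1.39, 9.57 and 18.1 CPM in CD44LowKitNeg. The 3 lowest of these, 3.90, 5.05 and 1.39 CPM, were the E11 libraries. The CD44LowKitPos libraries had 69.2, 41 and 47.2 CPM and the CD44High libraries 56.8, 70.3 and 103 CPM. No CD44LowKitNeg library reached the lowest library of any other population. *Mcm10* was 4.72-fold lower in CD44LowKitNeg than in CD44Neg (−2.24, SE 0.46, adjusted p = 0.00168), and rose 5.38-fold to CD44LowKitPos (2.43, SE 0.51, adjusted p = 0.00398) and 7.87-fold to CD44High (2.98, SE 0.51, adjusted p = 0.000123).

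*Cdc45*, which joins the helicase to form its active state with GINS, was at 60.7, 99.4 and 147 CPM (lowest, median and highest) in CD44Neg and 17.8, 46.9 and 64.9 CPM in CD44LowKitNeg. It fell by 1.17 on the log2 scale (SE 0.26, adjusted p = 0.00323), and the ranges overlapped, since the highest CD44LowKitNeg library (64.9 CPM) lay above the lowest CD44Neg library (60.7 CPM). In CD44LowKitPos it was at 148, 69.6 and 75.2 CPM and in CD44High at 89.7, 71.1 and 130 CPM. These libraries all lay above CD44LowKitNeg, but the differences of 1.16 (SE 0.34, adjusted p = 0.0256) and 1.15 (SE 0.34, adjusted p = 0.0138) were not called. Of the 4 GINS subunits only *Gins2* was called lower in CD44LowKitNeg than in CD44Neg (−1.13, SE 0.26, adjusted p = 0.00458), a call lost in 5 of the 16 fits that left out a library. Exons of *Gins2* overlap those of *Gse1* on the opposite strand over 2758 of 4097 bases, so its reads are uncertain. *Gins3* (−1.92, SE 0.72, adjusted p = 0.0647), *Gins1* (−0.97, SE 0.45, adjusted p = 0.142) and *Gins4* (−0.41, SE 0.20, adjusted p = 0.154) were not called.

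Among the clamp and its loader, all 6 estimates were below 0 and 2 were called lower in CD44LowKitNeg than in CD44Neg. *Rfc5*, a small subunit of the replication factor C complex that opens the PCNA ring, was at 66.3, 109 and 134 CPM (lowest, median and highest) in CD44Neg and 12.4, 41.8 and 62.9 CPM in CD44LowKitNeg. The CD44LowKitPos libraries had 191, 99.3 and 126 CPM and the CD44High libraries 138, 154 and 221 CPM. The CD44LowKitNeg libraries lay below every other library. Their difference was −1.47 against CD44Neg (SE 0.28, adjusted p = 0.000986), and the rise was 1.87 to CD44LowKitPos (SE 0.34, adjusted p = 0.00159) and 2.17 to CD44High (SE 0.34, adjusted p = 4.29e-05).

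*Rfc2*, another small subunit of the loader, was at 128, 180 and 287 CPM (lowest, median and highest) in CD44Neg and 60.3, 76.0 and 157 CPM in CD44LowKitNeg. The highest CD44LowKitNeg value was the E9.5 library. In CD44LowKitPos it was at 206, 169 and 248 CPM and in CD44High at 205, 317 and 316 CPM. *Rfc2* fell from CD44Neg to CD44LowKitNeg (−1.06, SE 0.23, adjusted p = 0.00316) and was higher in CD44LowKitPos (1.21, SE 0.29, adjusted p = 0.00858) and CD44High (1.64, SE 0.29, adjusted p = 0.000156). The rise to CD44LowKitPos was lost in 20 of the 22 fits that left out a library (adjusted p up to 0.0505, without CD44LowKitPos replicate 17), and with median-ratio size factors or no filter. Exons of *Rfc5* and *Rfc2* overlap those of *Wsb2* and *Lat2* on the opposite strand over 499 and 952 bases.

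*Pcna* and *Rfc1* were chosen for description after their values were seen. *Pcna*, the clamp, differed by −0.39 (SE 0.25, adjusted p = 0.315) between the endothelial populations, with 228 to 395 CPM in CD44Neg and 67.2 to 408 CPM in CD44LowKitNeg. By stage its log2 ratio was −0.16 (E9.5), 0.25 (E10) and −1.07 (E11), and at E11 the CD44LowKitNeg libraries (178, 182 and 67.2 CPM) all lay below the CD44Neg libraries (319, 271 and 310 CPM). *Rfc1*, the large subunit of the loader, differed by −0.12 (SE 0.26, adjusted p = 0.813). In CD44High both were higher than in CD44LowKitNeg, by 1.26 (SE 0.33, adjusted p = 0.00673) for *Pcna* and by 1.23 (SE 0.31, adjusted p = 0.00513) for *Rfc1*. Of the 22 fits that left out a library, the call was lost in 13 for *Pcna* (0.83, adjusted p = 0.127 without CD44High replicate 20) and in 9 for *Rfc1* (adjusted p up to 0.0395, without CD44High replicate 22). *Rfc1* was also higher in CD44High than in CD44Neg (1.11, SE 0.28, adjusted p = 0.00579), with 138, 147 and 161 CPM against 37.3 to 103 CPM, a call lost in 5 of the 22 fits. *Rfc3* (−0.26, SE 0.23) and *Rfc4* (−0.66, SE 0.33) were not called between the endothelial populations.

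Among the polymerases, the 2 subunits of polymerase alpha, which starts each new strand with primase, gave different estimates. *Pola2*, its regulatory subunit, was at 51.8, 89.0 and 128 CPM (lowest, median and highest) in CD44Neg and at 17.7, 33.9 and 45.8 CPM in CD44LowKitNeg. It was at 84.8, 43.4 and 36.8 CPM in CD44LowKitPos and at 114, 95.3 and 130 CPM in CD44High. CD44LowKitNeg and CD44Neg did not overlap (−1.44, SE 0.24, adjusted p = 0.000367), CD44LowKitPos overlapped CD44LowKitNeg (0.73, SE 0.32, adjusted p = 0.133), and CD44High lay above CD44LowKitNeg (1.77, SE 0.31, adjusted p = 0.000156). *Pola1*, the catalytic subunit, described after its values were seen, was at 35.4 to 78.7 CPM in CD44Neg and 25.9 to 81.9 CPM in CD44LowKitNeg, a difference of 0.07 (SE 0.25, adjusted p = 0.886). In the 3 CD44High libraries it was at 168, 160 and 118 CPM, above every library of the other populations, and rose by 1.59 against CD44Neg (SE 0.29, adjusted p = 0.000205) and by 1.53 against CD44LowKitNeg (SE 0.32, adjusted p = 0.000983).

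*Pold2*, an accessory subunit of polymerase delta, was the second polymerase gene that fell in CD44LowKitNeg. It was at 58.0, 71.8 and 139 CPM (lowest, median and highest) in CD44Neg and at 9.14, 38.4 and 55.2 CPM in CD44LowKitNeg, without overlap (−1.27, SE 0.31, adjusted p = 0.00675). The call was lost in 7 of the 16 fits that left out a library (adjusted p up to 0.0189, without CD44LowKitNeg replicate 12), with estimates from −1.42 to −1.07. The CD44LowKitPos libraries had 130, 76.2 and 80.5 CPM and the CD44High libraries 70.1, 70.8 and 90.6 CPM, again above all CD44LowKitNeg libraries, at 1.46 (SE 0.37, adjusted p = 0.0124) and 1.15 (SE 0.37, adjusted p = 0.0247). The primase genes *Prim1* (1.48, SE 0.35, adjusted p = 0.00287) and *Prim2* (1.69, SE 0.41, adjusted p = 0.00341) rose from CD44LowKitNeg to CD44High. *Pold1*, *Pold3*, *Pole* and *Pole2* were called in 0 of the 6 comparisons of populations. The catalytic gene of polymerase epsilon, *Pole*, had the lowest level per kilobase of the 41 in CD44Neg (3.68 ± 1.56 CPM per kb), and *Pcna* the highest (132 ± 20). These values rest on merged exon lengths of 11160 and 2400 bases, which can exceed those of the expressed transcripts.

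Replication protein A coats single-stranded DNA at the fork. Its large subunit *Rpa1* was at 93.1, 157 and 175 CPM (lowest, median and highest) in CD44Neg, 29.1, 97.0 and 124 CPM in CD44LowKitNeg, 259, 284 and 168 CPM in CD44LowKitPos and 216, 176 and 243 CPM in CD44High. It was not called between the endothelial populations (−0.75, SE 0.25, adjusted p = 0.0395) but rose to CD44LowKitPos (1.44, SE 0.31, adjusted p = 0.00475) and CD44High (1.28, SE 0.31, adjusted p = 0.00342), where its libraries lay above all CD44LowKitNeg libraries. The rise to CD44LowKitPos was lost in 3 of the 22 fits that left out a library, and in the fit with a stage covariate (adjusted p = 0.0135). *Rpa2*, the middle subunit, was at 90.1, 128 and 234 CPM in CD44Neg and 24.8, 75.1 and 118 CPM in CD44LowKitNeg (−0.99, SE 0.27, adjusted p = 0.0131). The CD44LowKitPos libraries had 181, 181 and 180 CPM and the CD44High libraries 143, 114 and 121 CPM. *Rpa3*, the small subunit, was not called in any comparison of populations, and its 10 CD44Neg libraries lay within 64.3 to 88.1 CPM.

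*Fen1* had the lowest adjusted p of the 41 genes between the endothelial populations. It encodes the flap endonuclease that trims Okazaki fragments before *Lig1*, DNA ligase I, seals them. *Fen1* was at 70.4, 112 and 170 CPM (lowest, median and highest) in CD44Neg and at 14.6, 26.5 and 52.4 CPM in CD44LowKitNeg. It was at 141, 87.0 and 99.7 CPM in CD44LowKitPos and at 90.5, 89.5 and 164 CPM in CD44High. The 6 CD44LowKitNeg libraries lay below the other 16. *Fen1* fell 3.87-fold from CD44Neg (−1.95, SE 0.26, adjusted p = 3.73e-05), and rose by 1.88 to CD44LowKitPos (SE 0.31, adjusted p = 0.000777) and by 1.95 to CD44High (SE 0.31, adjusted p = 5.93e-05). Its mean was lower in CD44LowKitNeg at every stage, by log2 ratios of stage means of −1.98 (E9.5), −1.47 (E10) and −2.01 (E11).

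*Lig1* was at 64.1, 121 and 168 CPM (lowest, median and highest) in CD44Neg and 38.9, 61.4 and 103 CPM in CD44LowKitNeg (−0.88, SE 0.24, adjusted p = 0.0123). Its CD44LowKitPos libraries had 135, 126 and 102 CPM. The CD44High libraries had 127, 185 and 162 CPM, all above CD44LowKitNeg, a rise of 1.28 (SE 0.29, adjusted p = 0.00195).

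**Figure D3:**
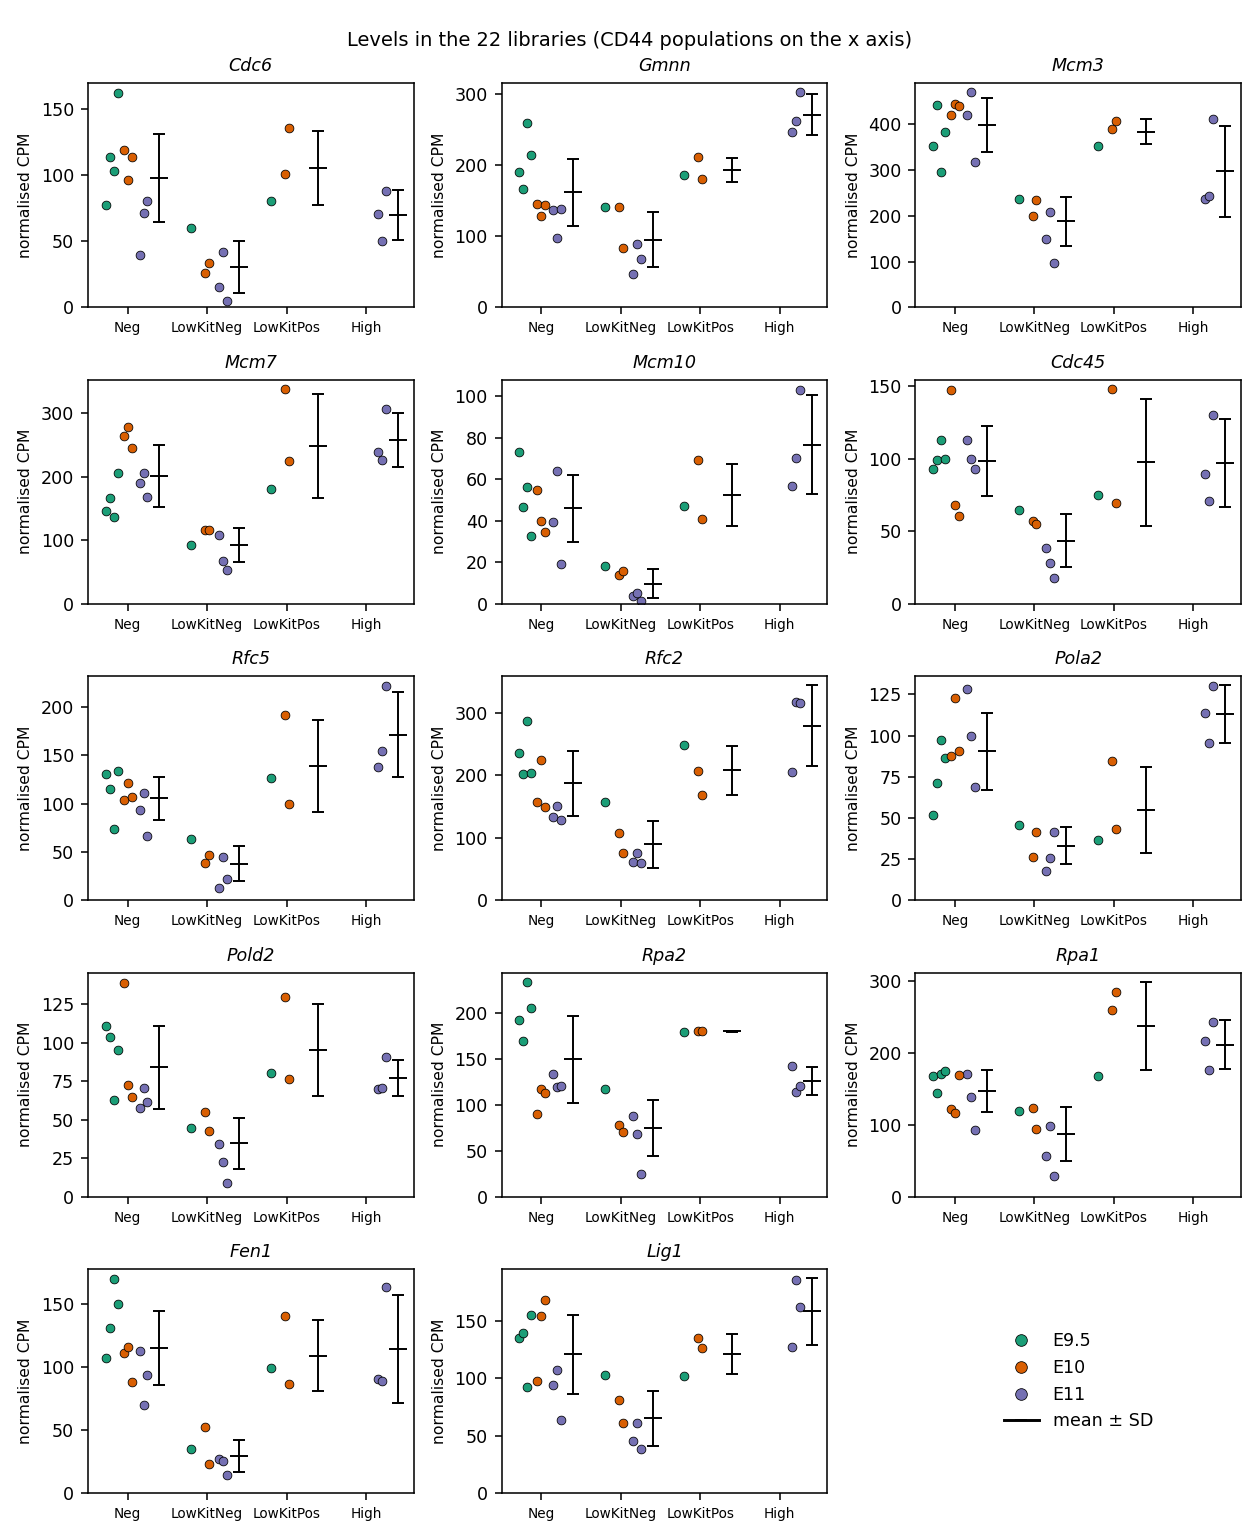
Normalised CPM (y axes, from 0) of 14 genes, the 2 with the lowest adjusted p between the endothelial populations in each role, in the 22 libraries by population (x axes), coloured by stage, with the mean ± SD beside each population. The CD44LowKitNeg libraries lay below the CD44Neg libraries without overlap for *Mcm3*, *Mcm7*, *Mcm10*, *Rfc5*, *Pola2*, *Pold2* and *Fen1*.

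Stage was examined within each endothelial population. In CD44LowKitNeg all 41 genes had lower estimates at E11 (3 libraries) than at E9.5 and E10 (3 libraries), with a median of −0.73 against 0.02 over all genes. None was called by edgeR, against 0.173% of all 11010 genes. At an unadjusted p under 0.05, 10 genes were lower and 0 higher, against 16.8% of all genes in either direction, and DESeq2 called 2, *Rfc4* and *Mcm5*, among 558 of the 11010 genes, a share near that background. For 17 genes the 3 E11 libraries lay below the 3 earlier ones, as they did for 13.4% of all genes. *Rfc4*, a loader subunit, had the lowest adjusted p (−1.79, SE 0.37, adjusted p = 0.0469), with 20.7, 29.1 and 20.8 CPM at E11 and 113, 74.3 and 64.5 CPM before. *Mcm5* was at 64.8, 62.1 and 38.6 CPM at E11 and at 113, 124 and 165 CPM before (−1.24, SE 0.31, adjusted p = 0.0813). The summed level of the 20 mitosis genes also differed by stage, at 450 to 1080 CPM at E11, 2050 and 3030 CPM at E10 and 6800 CPM at E9.5. The endothelial markers summed to 7230 to 8666 CPM at E11 and 3723 to 5004 CPM before (5 of 8 higher at an adjusted p under 0.05). The blood markers summed to 8.36 to 16.1 CPM at E11 and 120 to 302 CPM before, with 1 of the 6 tested called lower. The ribosomal transcript *Rn45s* took 17.4 to 19.2% of the counts at E11 and 7.29 to 11.1% before. With *Rn45s* left out, 0 genes were called, against 22 of 10966 genes, and the median was −0.75. The part of the mitosis genes and markers, and of *Rn45s* beyond its share of the counts, was not tested.

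In CD44Neg, between E9.5 and E11, 0 genes were called (0.684% of all 11250 genes), with a median of −0.34. At an unadjusted p under 0.05, 15 genes were lower at E11 and 0 higher, against 17.1% of all genes in either direction, and DESeq2 called 0. The lowest adjusted p was that of *Gins1* (−1.21, SE 0.32, adjusted p = 0.0533), at 35.8, 29.8 and 18.9 CPM at E11 against 88.9, 56.8, 62.6 and 55.4 CPM at E9.5, without overlap. In the same libraries 3 of 8 endothelial markers were called higher at E11 (mean sum 5810 against 3820 CPM). *Rn45s* took 15.2 to 17.9% of the counts at E11 against 1.92 to 13.8% at E9.5. With *Rn45s* left out, 0 genes were called, against 87 of 11229 genes, and the median was −0.34. The part of the markers, and of *Rn45s* beyond its share of the counts, was not tested. Between E9.5 and E10, 0 genes were called by edgeR (0.0178% of all genes) and 8 had an unadjusted p under 0.05 (15.2% of all genes). DESeq2 called 2 of them, *Rpa2* lower and *Mcm7* higher at E10, among 231 of the 11250 genes. *Rpa2* was at 90.1, 118 and 113 CPM at E10 and at 193, 170, 234 and 206 CPM at E9.5 (−0.89, SE 0.19, adjusted p = 0.0385). Between E10 and E11, 0 genes were called (0% of all genes), 8 had an unadjusted p under 0.05 (8.68% of all genes) and DESeq2 called 0.

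Whether the difference between the endothelial populations changed from E10 to E11 was tested as an interaction over 12403 genes. It called 0 of the 41 genes (0.00806% of all genes), and 4 had an unadjusted p under 0.05 (10.7% of all genes), namely *Pcna*, *Rfc4*, *Pola1* and *Mcm10*, with DESeq2 calling 0. The median estimate was −0.57 and the lowest adjusted p was 0.327, for *Pcna* (−1.34, SE 0.47). The median standard error of 0.54 leaves changes of this size unresolved.

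**Figure D4:**
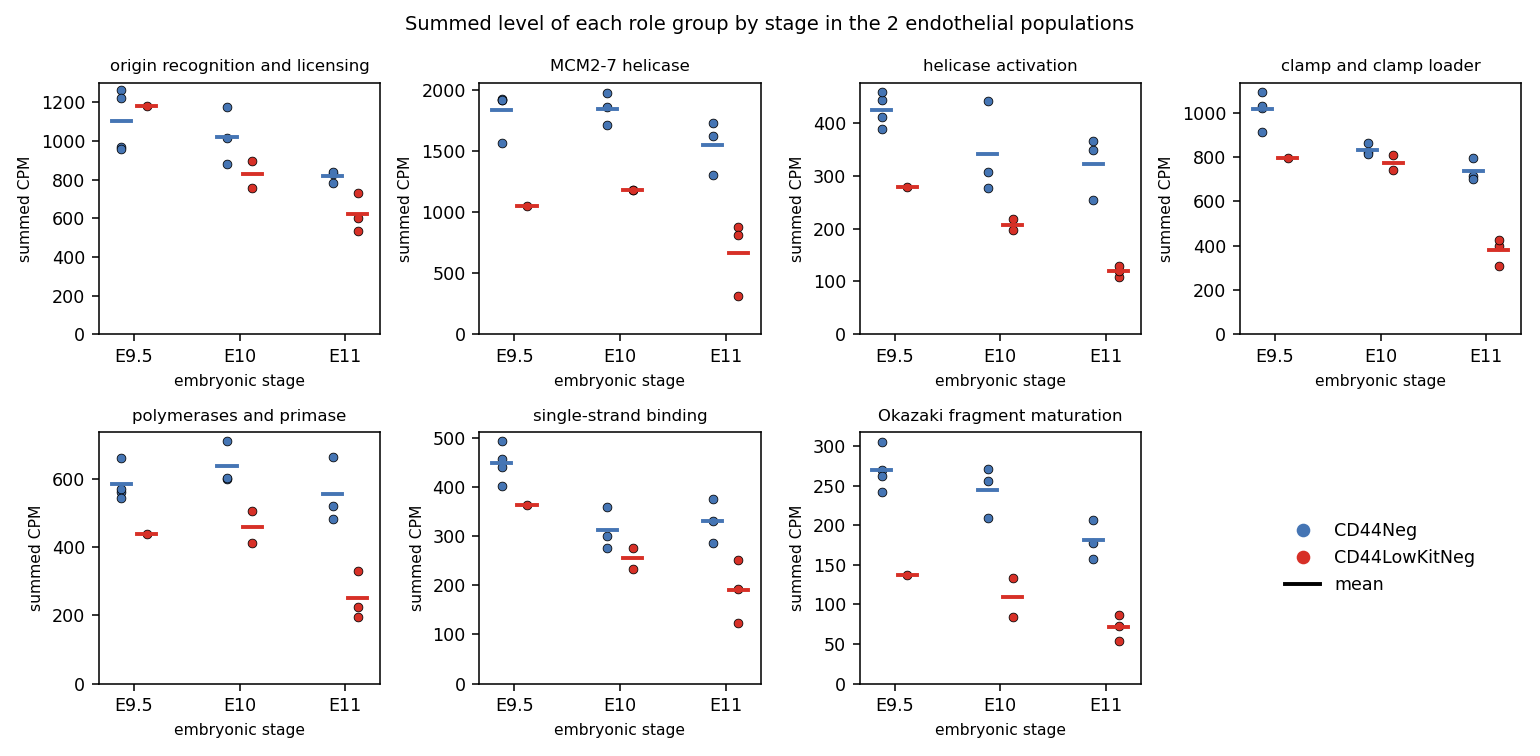
Summed normalised CPM (y axes, from 0) of the genes of each role (panels) by embryonic stage (x axes) in the CD44Neg and CD44LowKitNeg libraries, with horizontal bars for means. The 3 CD44LowKitNeg libraries from E11 lay below the 3 CD44Neg libraries of that stage in each panel, and for the helicase genes the single E9.5 library (1050 CPM) lay below the CD44Neg libraries of that stage (at least 1570 CPM).

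Genes that supply deoxynucleotides were examined beside the replication genes. Of 9 such genes, 4 were lower in CD44LowKitNeg than in CD44Neg (5.23% of all genes) and 0 higher (0 also at an unadjusted p under 0.05), with a median of −0.89. They were *Dctd*, the dCMP deaminase (−1.61, SE 0.27, adjusted p = 0.000368), *Nme1*, a nucleoside diphosphate kinase (−1.58, SE 0.28, adjusted p = 0.000486), *Tk1*, thymidine kinase (−1.46, SE 0.37, adjusted p = 0.00797), and *Tyms*, thymidylate synthase (−0.81, SE 0.21, adjusted p = 0.00843). From CD44LowKitNeg, 5 of the 9 rose to CD44LowKitPos and 5 to CD44High, where 2.55% and 7.79% of all genes were called higher. Of 33 other replication genes, 1 fell and 1 rose between the endothelial populations, with a median of −0.46. The background was 5.23% of all genes lower and 4.94% higher. Of the 33, 24 had estimates below 0, and 10 were lower (16.6% of all genes) and 2 higher at an unadjusted p under 0.05. *Chaf1b*, a subunit of the chromatin assembly factor that loads histones behind the fork, fell by 2.15 (SE 0.26, adjusted p = 1.39e-05). *Rif1*, which restrains late origins, was the 1 that rose (1.29, SE 0.19, adjusted p = 9.93e-05).

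Of 20 mitosis genes, 0 were called between CD44LowKitNeg and CD44Neg by edgeR or DESeq2, 8 were lower (16.6% of all genes) and 0 higher at an unadjusted p under 0.05, and the median was −0.61. Its summed level ranged from 450 to 6800 CPM among the 6 CD44LowKitNeg libraries and from 2310 to 5650 CPM among the CD44Neg libraries. The highest, CD44LowKitNeg replicate 14 from E9.5, held 4248 CPM of replication genes, less than each CD44Neg library of its stage. Of 13 E2F and pocket protein genes, 0 were called in this comparison by edgeR or DESeq2 (2 higher and 2 lower at an unadjusted p under 0.05, where 16.6% of all genes were lower), with a median of 0.31. From CD44LowKitNeg to CD44High, 1 of the 13 was called higher and 0 lower, a share near the 7.79% of all genes called higher. It was *Tfdp1*, the partner subunit of the E2F factors (1.20, SE 0.27, adjusted p = 0.00165). Of the 13 estimates, 8 were above 0 and 5 below, and 2 genes were lower at an adjusted p under 0.05.

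The promoters of the replication genes were read for 2 forms of the letters that E2F factors bind, TTTCGCGC and TTTGGCGC, on both strands. RefSeq promoters (GRCm38.p6, from 250 bases before each start) were held for 33 of the 41 genes. Of these, 10 (30.3%) held such letters, against 0.929% of 27025 genes and 1.23% of the 17336 genes that also have a row in the count table. The 10 were *Orc1*, *Cdt1*, *Mcm3*, *Mcm5*, *Mcm6*, *Mcm7*, *Rfc3*, *Pola1*, *Pole2* and *Lig1*. The letters CCAAT, read in the same way, were in 21 of the 33 (63.6%) and in 41.1% of all genes. The sequences below show the 5 genes whose match lies before the start of a promoter entry, with the matched letters in capitals. For *Orc1* and *Pola1* both the RefSeq gene span and GENCODE M21 begin further upstream than that entry. Their matches therefore lie inside the gene, although the stretches are labelled promoter below. For *Mcm5* and *Mcm6* the stretch ends before the outermost GENCODE start, and for the others 30 bases around the match are given. In *Mcm5* and *Mcm6* a match on each strand overlaps the other, and *Mcm6* has a further match closer to the start.

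Mcm5 promoter, chr8:75109349-75109467, plus strand: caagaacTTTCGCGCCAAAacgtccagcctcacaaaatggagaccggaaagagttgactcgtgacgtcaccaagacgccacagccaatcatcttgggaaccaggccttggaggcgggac

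Mcm6 promoter, chr1:128359706-128359865, minus strand: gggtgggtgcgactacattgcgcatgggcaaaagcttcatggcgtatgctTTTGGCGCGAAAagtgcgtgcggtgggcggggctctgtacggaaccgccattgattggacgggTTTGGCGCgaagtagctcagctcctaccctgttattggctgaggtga

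Orc1 promoter, chr4:108579416-108579445, plus strand: ttcggttagtgGCGCGAAAagttttctcct

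Rfc3 promoter, chr5:151651200-151651229, minus strand: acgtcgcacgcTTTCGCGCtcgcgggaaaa

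Pola1 promoter, chrX:93632275-93632304, minus strand: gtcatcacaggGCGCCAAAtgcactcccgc

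Of the 10 genes with these letters, 3 fell between the endothelial populations, *Mcm3* (−1.08, SE 0.18, adjusted p = 0.000347), *Mcm5* (−1.29, SE 0.28, adjusted p = 0.00295) and *Mcm7* (−1.11, SE 0.21, adjusted p = 0.000889). The others were not called, with log2 fold changes of −0.88 for *Lig1*, −0.86 for *Mcm6*, −0.65 for *Orc1*, −0.59 for *Cdt1*, −0.26 for *Rfc3*, −0.20 for *Pole2* and 0.07 for *Pola1*. Over all 41 genes 13 fell, and 8 of these (*Cdc6*, *Mcm2*, *Mcm10*, *Cdc45*, *Rfc5*, *Pola2*, *Pold2* and *Fen1*) had a promoter without the letters. A match is only a description of the letters in this window, and no factor binding was measured.

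In all, 10 of the 41 genes share annotated exon sequence with another gene of the table, mostly on the opposite strand (*Orc2*, *Orc4*, *Orc5*, *Orc6*, *Mcm7*, *Gins2*, *Rfc2*, *Rfc4*, *Rfc5* and *Fen1*). Of the 13 genes lower in CD44LowKitNeg than in CD44Neg, 8 had no such overlap. The strand setting of the counting is not given in the sources used here.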

How the data were processed

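Bulk RNA-seq libraries of 25 sorted cells were made with SMART-Seq2. The authors deposited whole-number read counts per gene for 22 libraries, which htseq-count had made from RNA STAR alignments of reads trimmed by FASTX on a Galaxy server. The labels name mm10, FastQC and HTSeq, and versions are not given in the sources used here, nor are the annotation, strand setting and treatment of shared reads. Intervals and floors cover counting error only.

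From the deposited counts, differences were tested with edgeR 4.0.16 (quasi-likelihood test, R 4.3.3) after filterByExpr (minimum count 10, minimum total 15) and TMM scaling, with a prior count of 0.125 and Benjamini-Hochberg adjustment over all genes tested. A gene was called at an adjusted p under 0.01. The comparison of CD44LowKitNeg with CD44Neg was fitted on those 16 libraries, the other comparisons of populations on all 22, and the stage comparisons within their own populations. Normalised CPM are counts over the TMM library size. Stage ratios used a pseudocount of 0.517 CPM. Alternatives were DESeq2 1.42.0, median-ratio size factors, no filter, *Rn45s* left out, stage as a covariate, single stages, a threshold of 0.05 and leaving out each library. The calculations were tested on simulated data. In 20 pairs of libraries the counts differed by at least 17.6 times the sampling noise (chi-square per degree of freedom), so none was counted as a copy of another. This measure covers read sampling alone, so it cannot tell technical replicates from separate embryos.

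Genes named by rule were the 2 with the lowest adjusted p between the endothelial populations in each role, and other members given with library values, such as *Orc3*, *Pcna*, *Rfc1*, *Pola1*, *Rfc4*, *Mcm5* and *Gins1*, and *Tfdp1* of the E2F list, were chosen after their values were seen. The genes and lists were chosen with earlier results of these data known. Exon lengths, merged over all transcripts of a gene, and overlaps came from GENCODE M21. Promoters came from RefSeq (GRCm38.p6).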

Additional observations from a re-analysis of the deposited data

Results flagged for a closer look

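For each of the 41 genes and for their sum, the highest and the lowest library were compared with the others of its population in CD44Neg and CD44LowKitNeg, and 8 of the 84 groups of values tested held a library far from the rest, where chance gives about 1 in 20. In CD44Neg, *Orc1* was at 75.2 CPM in replicate 8 (14.9 to 46.1 CPM in the others), *Mcm4* at 514 CPM in replicate 6 (218 to 360 CPM) and *Pold3* at 150 CPM in replicate 9 (42.8 to 83.8 CPM). In CD44LowKitNeg, replicate 14, the single E9.5 library, was high for *Orc3* (190 CPM, others 103 to 129 CPM), *Gins2* (54.8 CPM, others 18.4 to 30.3 CPM) and *Gins3* (27.7 CPM, others 0 to 9.60 CPM). Replicate 13 was low for *Mcm4* (45.1 CPM, others 182 to 244 CPM), and replicate 16 was high for *Rfc1* (120 CPM, others 33.2 to 58.9 CPM).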

How the results depend on the processing

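Of the 41 single calls (a gene in a comparison), DESeq2 kept 41, leaving out *Rn45s* 40, stage as a covariate 39, and median-ratio size factors and no filter 37 each, and 17 were kept whichever library was left out. No called gene changed sign. For CD44LowKitNeg against CD44Neg the 13 genes became 9 to 15 with a library left out. They became 0 from the E11 libraries alone (126 of 11942 genes called) and 0 from the E10 libraries alone (1 of 11191). These fits hold fewer samples. For CD44LowKitPos against CD44LowKitNeg the 7 became 15 with DESeq2, 21 at a threshold of 0.05, 0 among the E9.5 and E10 libraries alone, and 0 to 12 with a library left out. For CD44High against CD44LowKitNeg the 18 became 29 with stage as a covariate and 8 to 22 with a library left out. For CD44High against CD44Neg the 3 became 10 with stage as a covariate, 5 at a threshold of 0.05 and 1 to 4 with a library left out. Between E9.5 and E10 in CD44Neg, and between E11 and the earlier stages in CD44LowKitNeg, 0 became 2 with DESeq2 and 1 at a threshold of 0.05. Except where fewer samples were used, the cause was not tested. No paired analysis was run. The replicate number is a running number over all libraries and holds no pairing, so whether groups share embryos or pools could not be checked. The standard error between the endothelial populations ran from 0.18 to 0.72 (*Gins3*).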
